A study of Mus musculus with 8 samples.

Results

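Tbx21, the gene of the transcription factor T-bet, was nearly absent from iron-supplemented CD4 T cell cultures. So was Tbkbp1, the next protein-coding gene upstream on the chromosome. The 6 other tested neighbours were not called different, where 1.10% of all tested genes were called lower with iron and 2.18% higher. The account below covers 10 mouse genes around T-bet and the type 1 helper programme: Tbx21, Tbkbp1, Ifng, Eomes, Runx3, Runx1, Il12rb1, Il12rb2, Cxcr3 and Nkg7, out of 57010 genes in the count tables. They were chosen from earlier results of these same FAC and control libraries, with the low Tbx21 level under FAC known. Their differences between FAC and control are therefore given as a description, with no test of their own, and nothing is supported with them. All 10 were found by symbol in the deposited normalised table.

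The libraries were made from wild-type C57BL/6 mice. Naive CD4 T cells were sorted from peripheral lymph nodes, cultured with 10% serum and stimulated through CD3, part of the T cell receptor complex, and CD28, a costimulatory receptor. Plate-bound antibody to each was used at 4 µg/mL, and the stimulation lasted 20 h. In the FAC group (n = 4) the culture also received iron, whose form and dose the labels do not spell out. The control group (n = 4) received the same activation and no added iron. Each mouse number, 1 to 4, names 1 FAC and 1 control culture.

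T-bet directs CD4 T cells towards the type 1 helper fate, in which cells secrete interferon gamma against intracellular microbes and tumours. T cell receptor signals and interferon gamma first switch Tbx21 on, and IL-12 acting through STAT4 later sustains the programme. T-bet and Runx3 then act together at Ifng, and Runx3 also helps to silence Il4. Eomes is the T-box relative of T-bet that prevails in CD8 T cells and NK cells.

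Library totals ran from 25410267 to 37350609 counts. Of the 13378 genes tested for a difference between FAC and control by edgeR's quasi-likelihood test, 147 were lower with FAC (1.10%) and 291 higher (2.18%) at an adjusted p under 0.05. With the mouse as a replicate block these were 375 (2.80%) and 544 (4.07%), and DESeq2 gave 2.37% lower and 3.96% higher of the 12597 genes with an adjusted p. At an unadjusted edgeR p under 0.05, 8.14% were lower and 10.3% higher. The 6 CD4 T cell markers checked (Cd4, Cd3e, Cd3d, Trac, Cd28 and Cd5) summed to 2312 to 2370 TPM in FAC libraries and 2156 to 2225 TPM in control libraries. These ranges did not overlap. Cd5 was called higher with FAC (log2 change 0.14, SE 0.03, edgeR adjusted p = 0.0304), and the other 5 were not called by edgeR on the group alone. With the mouse as a block, edgeR called Cd28 higher with FAC as well as Cd5. TPM is a level scaled for transcript length and library total. The 5 NK cell markers, which would accompany Tbx21, Eomes and Nkg7 from another cell type, summed to 0 to 0.14 TPM in both groups, with Ncr1 and Klra4 at 0 in all 8 libraries. Cd8b1 was present (6.51 to 9.47 TPM in FAC libraries), with Cd8a at 0.02 to 0.21 TPM there, and the 2 CD8 markers together made 6.60 to 9.55 TPM in FAC and 8.36 to 10.95 TPM in control libraries. The 4 gamma delta T cell markers gave 0.73 to 1.52 TPM with FAC and 1.17 to 2.03 TPM in control. The 4 B cell markers gave 0.08 to 0.31 TPM with FAC and 0 to 0.22 TPM in control, with Cd22 at 0 throughout. The 5 myeloid markers gave 2.89 to 5.04 TPM with FAC and 2.36 to 3.13 TPM in control, with Lyz2 at 0. Nearly all of the myeloid sum was Cd68 (2.82 to 4.86 TPM with FAC and 2.16 to 2.98 TPM in control), which was not called by edgeR. Csf1r, Itgam and Itgax reached at most 0.15 TPM in any library. The part of the CD8, gamma delta and myeloid markers in the values below was not tested. In such bulk libraries, fewer cells that make a transcript and less of it per cell cannot be told apart.

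Promoter sequences of the 2 genes with the largest differences, and of 3 others for comparison, are shown because Tbx21 and Tbkbp1 were low together and T-bet, Runx and STAT factors act on genes of this group. Each runs 5′ to 3′ on the gene's own strand from 250 bases before to 50 bases after the start, from RefSeq on GRCm38.p6. Capitals mark matches, on either strand, to a T-box element (GGTGTGA), a Runx element (TGTGGT), a STAT element (TTCNNNGAA) or an interferon-factor element (GAAANNGAA). No match overlapped another in these 5 windows.
Tbx21, chr11:97115282-97115581, minus strand: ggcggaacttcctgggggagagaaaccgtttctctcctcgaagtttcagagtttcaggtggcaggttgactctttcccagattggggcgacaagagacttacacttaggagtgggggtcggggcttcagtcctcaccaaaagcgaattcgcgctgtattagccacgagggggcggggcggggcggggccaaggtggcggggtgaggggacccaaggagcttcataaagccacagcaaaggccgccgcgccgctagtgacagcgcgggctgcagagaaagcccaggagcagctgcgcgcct
Tbkbp1, the start nearer to Tbx21, chr11:97150026-97150325, minus strand: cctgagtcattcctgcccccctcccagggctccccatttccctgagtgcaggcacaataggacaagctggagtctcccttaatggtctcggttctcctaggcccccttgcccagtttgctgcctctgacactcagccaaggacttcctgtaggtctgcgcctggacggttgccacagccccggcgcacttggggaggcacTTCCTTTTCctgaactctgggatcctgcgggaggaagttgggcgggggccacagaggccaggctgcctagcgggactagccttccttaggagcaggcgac
Ifng, chr10:118440796-118441095, plus strand: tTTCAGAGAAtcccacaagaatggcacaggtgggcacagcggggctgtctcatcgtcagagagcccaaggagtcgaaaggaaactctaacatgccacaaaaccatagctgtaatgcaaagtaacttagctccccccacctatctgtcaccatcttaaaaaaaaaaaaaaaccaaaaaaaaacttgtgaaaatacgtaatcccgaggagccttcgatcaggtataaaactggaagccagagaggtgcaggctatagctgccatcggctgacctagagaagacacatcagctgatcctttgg
Il12rb2, chr6:67376139-67376438, minus strand: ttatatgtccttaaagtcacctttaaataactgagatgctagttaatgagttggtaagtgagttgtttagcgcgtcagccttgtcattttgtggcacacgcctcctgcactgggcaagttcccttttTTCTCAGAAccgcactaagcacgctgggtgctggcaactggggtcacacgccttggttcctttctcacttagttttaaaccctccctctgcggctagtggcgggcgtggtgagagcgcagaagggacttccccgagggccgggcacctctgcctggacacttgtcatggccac
Nkg7, chr7:43436888-43437187, plus strand: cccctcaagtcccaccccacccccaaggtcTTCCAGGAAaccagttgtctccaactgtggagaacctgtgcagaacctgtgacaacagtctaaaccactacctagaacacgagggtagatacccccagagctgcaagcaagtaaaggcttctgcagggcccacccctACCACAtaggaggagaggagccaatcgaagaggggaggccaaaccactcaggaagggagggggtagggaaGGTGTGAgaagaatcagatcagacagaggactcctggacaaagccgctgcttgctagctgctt

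The Tbx21 window held none of the 4 elements, and neither did the outer start of Tbkbp1 or 1 start each of Runx3 and Runx1. The 3 comparison windows shown are those with a STAT element, and the Tbkbp1 start shown is the one with a match. RefSeq gave 12 start sites for 9 of the 10 genes. The T-box element was in 1 of the 12 (Nkg7), the Runx element in 4 (Nkg7, Cxcr3 and 1 start each of Runx3 and Runx1), the STAT element in 3 (Ifng, Il12rb2 and Nkg7) and the interferon-factor element in 2 (Eomes and the start of Tbkbp1 shown). Over all 32851 mouse promoter windows of 300 bases the shares were 3.98%, 16.8%, 8.30% and 8.56% in the same order. These matches describe letters in these windows and show nothing about where a factor bound in these cells.

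Tbx21 (ENSMUSG00000001444) had 8, 9, 3 and 1 counts in the FAC libraries of mice 1 to 4, against 72, 204, 92 and 155 counts in the control libraries. As depth-scaled counts (CPM, on the TMM scale), that was 0.254, 0.276, 0.103 and 0.0391 CPM with FAC and 2.85, 5.55, 3.03 and 5.46 CPM in control. The groups lay far apart, with every FAC library far below the lowest control library. Within each mouse the FAC level was 8.90% of the control level in mouse 1 (95% counting interval 3.70% to 18.5%), 4.98% in mouse 2 (2.24% to 9.64%), 3.41% in mouse 3 (0.690% to 10.3%) and 0.717% in mouse 4 (0.0180% to 4.05%). These exact intervals cover counting error only, and all 4 overlap one another. Averages were 0.168 ± 0.115 CPM in FAC and 4.22 ± 1.48 CPM in control cultures (SD, n = 4 each), a log2 change of -4.56 (SE 0.40). Ranked by log2 change among the 13378 tested genes, Tbx21 stood 1st from the lowest. RSEM lists a single transcript for it, so its length estimate was the same in each library and no mix of isoforms enters its level.

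Tbkbp1 (ENSMUSG00000038517) encodes an adaptor that binds the kinase TBK1, and is the next protein-coding gene upstream of Tbx21, on the same strand. A processed pseudogene, Gm11572, lies between them on that strand and had at most 3.01 counts in any library. Tbkbp1 had 1, 7, 4 and 5 counts in FAC mice 1 to 4, against 18, 83, 37 and 74 counts in control mice 1 to 4. The groups did not overlap, and the control libraries of mice 2 and 4 were the highest for this gene as they were for Tbx21. The means were 0.145 ± 0.0823 CPM in FAC and 1.70 ± 0.882 CPM in control cultures, a log2 change of -3.54 (SE 0.51), placing it 3rd from the lowest of the tested genes. The FAC level within a mouse ran from 4.45% of control in mouse 1 (0.107% to 28.2%) to 11.3% in mouse 3 (2.92% to 31.4%). Both genes passed the filter on low counts through the control libraries, so a gene this low with FAC could be tested only if it was higher in control.

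**Figure D1:**
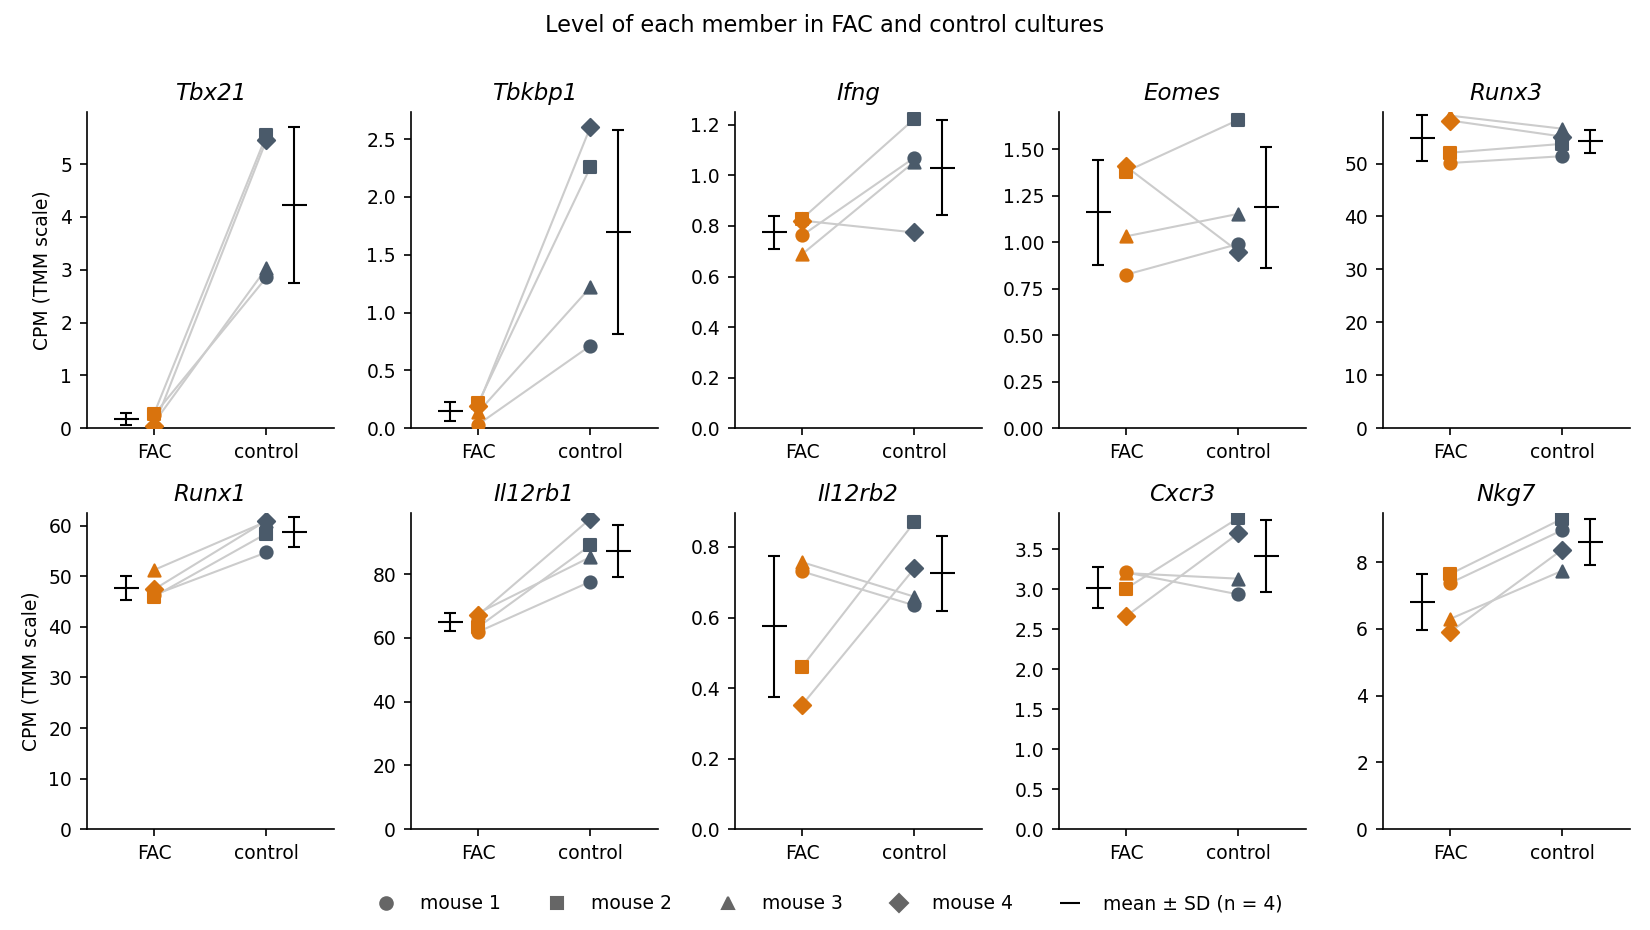
Level of each of the 10 genes in CPM on the TMM scale (vertical axes, linear, from 0) in FAC (left, orange) and control (right, slate) cultures; symbols are mice, grey lines join the cultures of a mouse, and bars give mean ± SD (n = 4). Tbx21 and Tbkbp1 lie near 0 with FAC, Runx1, Il12rb1 and Nkg7 are lower with FAC in all 4 mice by a small step, and the other genes overlap between groups.

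The neighbourhood was then read in the order of an annotation of an earlier build (GENCODE M21). Of the 4 protein-coding genes on either side of Tbx21, Tbkbp1 is a member, Lrrc46 was too low to test (at most 4 counts in any library), and 6 others were tested. None of those 6 was called by edgeR, DESeq2, the fit with the mouse as a block or limma on TPM. At an unadjusted edgeR p under 0.05 there were 0. Over all tested genes edgeR called 1.10% lower and 2.18% higher, with 8.14% and 10.3% at the unadjusted threshold. These shares were 2.37% and 3.96% by DESeq2, and 2.80% and 4.07% with the block. With shares this low, nothing is read from 0 calls among 6 genes. Their log2 changes ran from -0.05 to 0.06. Kpnb1, which encodes the nuclear import receptor importin beta, is next after Tbkbp1 and had 1330 ± 42.3 CPM in FAC and 1378 ± 36.4 CPM in control cultures (log2 change -0.05, SE 0.04, edgeR adjusted p = 0.483). On the other side, Osbpl7, an oxysterol-binding protein gene, had 17.96 to 21.5 CPM with FAC and 19.1 to 21.7 CPM in control (-0.03, SE 0.07, edgeR adjusted p = 0.881). Mrpl10 and Mrpl45, mitochondrial ribosomal protein genes, Npepps, an aminopeptidase gene, and Scrn2 had log2 changes of -0.03, -0.03, -0.02 and 0.06 in that order, none of them called.

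**Figure D2:**
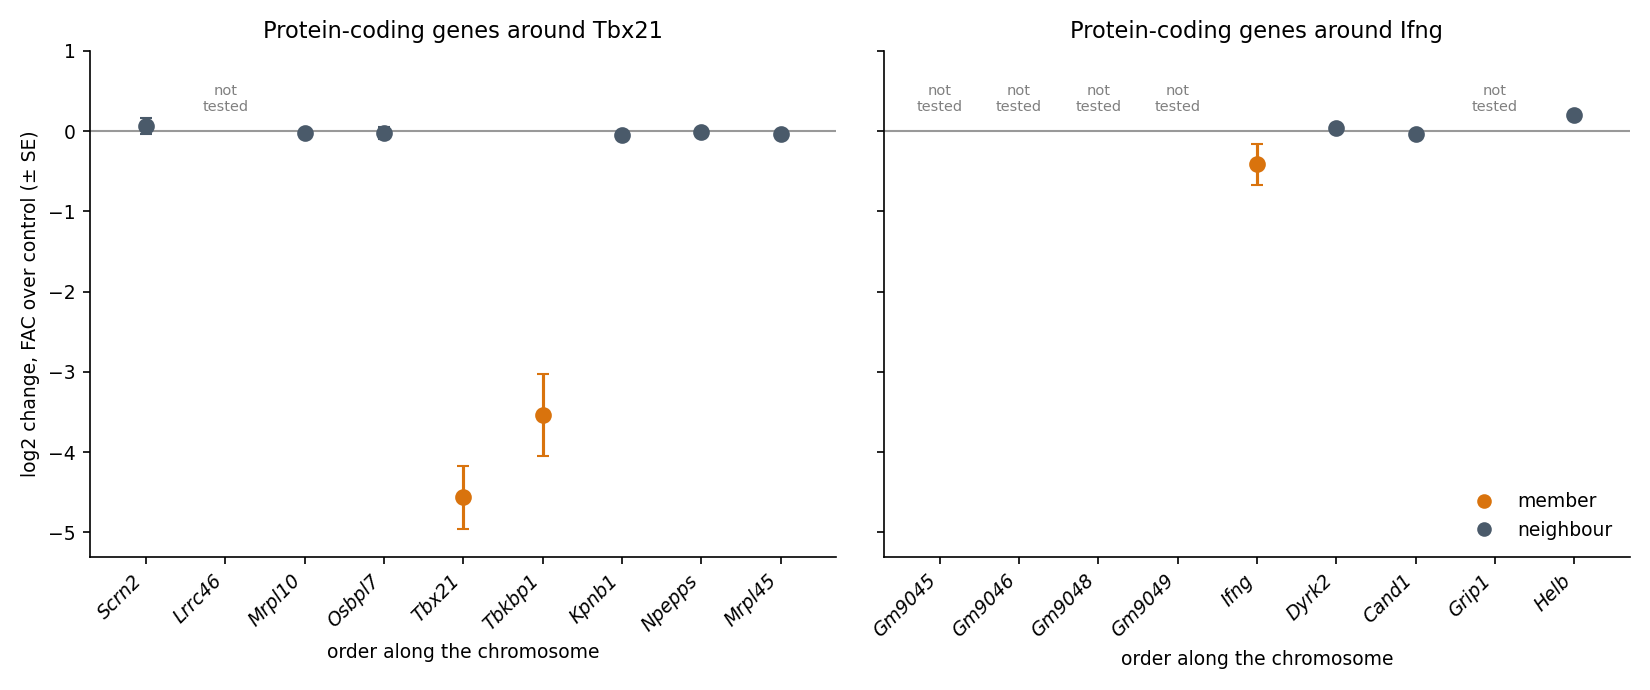
Log2 change, FAC over control, with its SE (vertical axis) for the protein-coding genes in chromosomal order around Tbx21 (left) and Ifng (right); orange points are members and slate points neighbours. Tbx21 and Tbkbp1 sit at -4.56 and -3.54, and the other tested genes lie between -0.05 and 0.20 apart from Ifng at -0.41.

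Ifng, the gene of interferon gamma itself and the best known target of T-bet, was low in both groups. It had 24, 27, 20 and 21 counts with FAC and 27, 44.98, 32 and 22 counts in control mice 1 to 4. The FAC level was lower in mice 1 to 3 and higher in mouse 4, and the groups overlapped. The means were 0.775 ± 0.0651 CPM in FAC and 1.03 ± 0.187 CPM in control cultures (log2 change -0.41, SE 0.26). Of the 8 coding genes beside Ifng in the same order, 3 were tested (Dyrk2, Cand1 and Helb). They lie 410, 753 and 1638 kb downstream of Ifng in that order, and no upstream neighbour was tested. The farthest tested neighbour of Tbx21, Mrpl45, lies 200 kb from it. Among the 3 beside Ifng edgeR called 0, beside 1.10% lower and 2.18% higher over all tested genes. At an unadjusted edgeR p under 0.05 there was 1 gene, beside 8.14% lower and 10.3% higher, and nothing is read from these counts. That gene was Helb, which encodes a DNA helicase and had 31.8 ± 0.976 CPM with FAC and 27.7 ± 1.56 CPM in control (0.20, SE 0.06, edgeR adjusted p = 0.0749). DESeq2 called it (adjusted p = 0.0428), as did edgeR without control mouse 4 (adjusted p = 0.0452), and the fits with the mouse as a block and on TPM did not.

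Eomes, the other T-box factor, showed no common direction. It had 26, 45, 30 and 36 counts with FAC and 25, 61, 35 and 27 in control mice 1 to 4. The ranges overlapped, with mouse 4 higher with FAC and the others lower, and the means were 1.16 ± 0.282 CPM in FAC and 1.19 ± 0.326 CPM in control cultures (log2 change -0.05, SE 0.28). Set against each other on the TPM scale, Tbx21 was at 0.0345 to 0.441 times the level of Eomes in FAC libraries, and at 3.04 to 8.41 times its level in control libraries. The order of the pair was thus opposite in the groups, with Eomes above Tbx21 in all 4 FAC cultures.

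The Runx pair differed by gene. Runx1, a factor of thymocyte and naive T cell identity, had 46.3, 46.0, 51.2 and 47.4 CPM in FAC mice 1 to 4, against 54.7, 58.4, 60.8 and 61.0 CPM in control mice. The groups did not overlap, and each mouse was lower with FAC by 0.24 to 0.36 on the log2 scale (fit -0.30, SE 0.05). Runx3, the partner of T-bet at Ifng, had 50.1, 52.0, 59.0 and 58.1 CPM with FAC and 51.4, 53.7, 56.6 and 55.1 CPM in control. It was lower in mice 1 and 2 and higher in mice 3 and 4, with a fitted change of 0.02 (SE 0.06). Per length, Runx1 made up 44.2% to 46.2% of the summed Runx1 and Runx3 TPM in FAC libraries and 48.8% to 50.7% in control libraries, so the share did not overlap between groups. On the TPM scale alone, Runx1 did overlap between groups (17.0 to 22.2 TPM with FAC and 20.9 to 24.8 TPM in control). Its call in the fit of all genes did not hold with an offset for transcript length or in limma, whether on TPM or on the deposited signal. Their shared cofactor gene Cbfb was not called, with 161 ± 10.3 CPM in FAC and 170 ± 5.41 CPM in control cultures (-0.08, SE 0.05, edgeR adjusted p = 0.384).

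**Figure D3:**
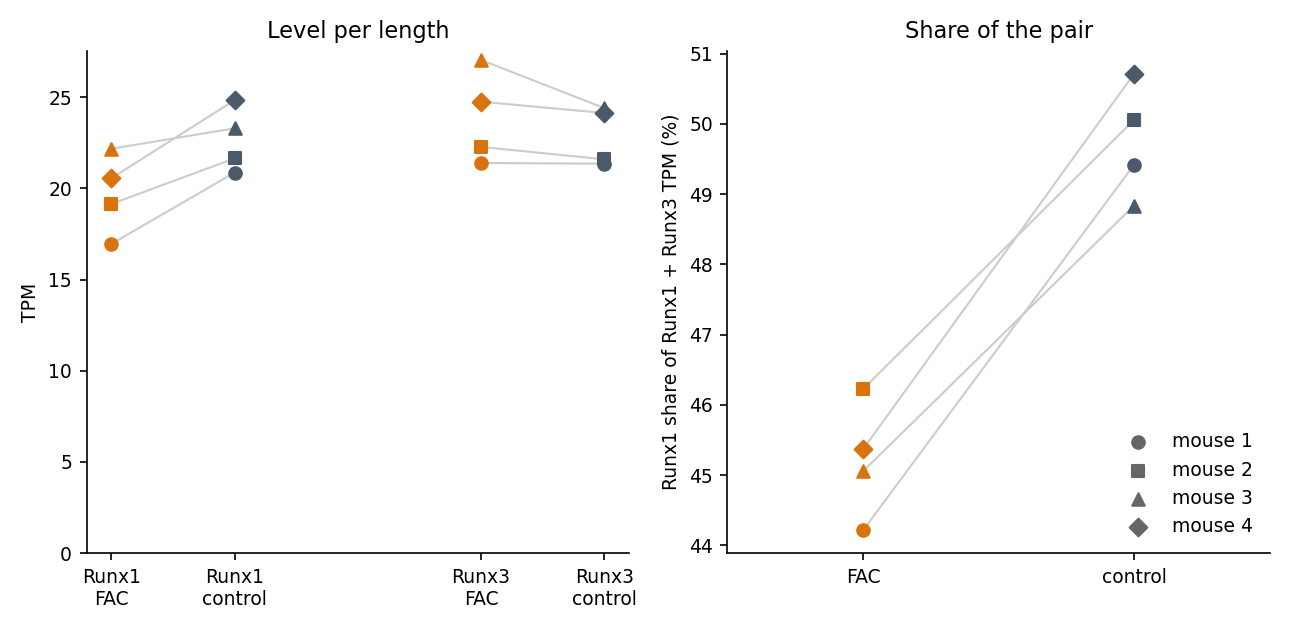
Left, TPM of Runx1 and Runx3 in FAC (orange) and control (slate) cultures, symbols as mice; right, the Runx1 share of the summed TPM of both genes in percent, on an axis that does not start at 0. The 4 FAC cultures sit at 44.2% to 46.2%, below the 4 control cultures at 48.8% to 50.7%.

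The 2 chains of the IL-12 receptor stood at very different levels. Il12rb1, the chain shared with the IL-23 receptor, had 61.9, 63.4, 67.8 and 67.1 CPM in FAC mice 1 to 4 and 77.7, 89.1, 85.4 and 97.4 CPM in control mice. The groups did not overlap and all 4 mice were lower with FAC, by 0.33 to 0.54 on the log2 scale (fit -0.43, SE 0.06). Il12rb2, the chain that recruits STAT4 and is itself induced by T-bet, had 22.6, 15.4, 21.7 and 9.34 counts with FAC, against 16.4, 31.7, 19.5 and 21.5 in control. It was higher with FAC in mice 1 and 3 and lower in mice 2 and 4 (0.575 ± 0.200 CPM in FAC and 0.726 ± 0.106 CPM in control, log2 change -0.33, SE 0.32). Per length, Il12rb1 exceeded Il12rb2 by 110- to 243-fold in FAC and 122- to 160-fold in control libraries. The Il12rb1 call in the fit of all genes was likewise lost with the length offset and in the 3 limma fits, although its TPM ranges did not overlap (36.3 to 43.7 with FAC and 44.4 to 59.0 in control).

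Cxcr3 and Nkg7 are genes that type 1 cells use to reach and kill targets. Cxcr3, a chemokine receptor gene induced by T-bet, had 101, 98, 93 and 68 counts with FAC and 74, 143, 95 and 105 in control mice 1 to 4. It was higher with FAC in mice 1 and 3 and lower in mice 2 and 4, the same division as for Il12rb2, and the ranges overlapped (3.02 ± 0.257 CPM in FAC and 3.41 ± 0.453 CPM in control, log2 change -0.18, SE 0.15). Nkg7, which encodes a membrane protein of cytotoxic granules, had 7.37, 7.64, 6.30 and 5.91 CPM with FAC, against 8.96, 9.30, 7.74 and 8.38 CPM in control. It was lower in all 4 mice and the groups were separate, though by a small gap (-0.33, SE 0.11), and it was not called. Cd8b1, a CD8 marker, was also lower in 4 of 4 mice and was not called. It had 7.74 ± 1.19 CPM in FAC and 9.51 ± 1.25 CPM in control cultures. Cd8a, the other CD8 marker, was too low to test and was higher on average with FAC. Its levels were 0.163 ± 0.150 CPM in FAC and 0.0953 ± 0.0650 CPM in control cultures. What part cells with these markers had in the Nkg7 values was not tested.

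**Figure D4:**
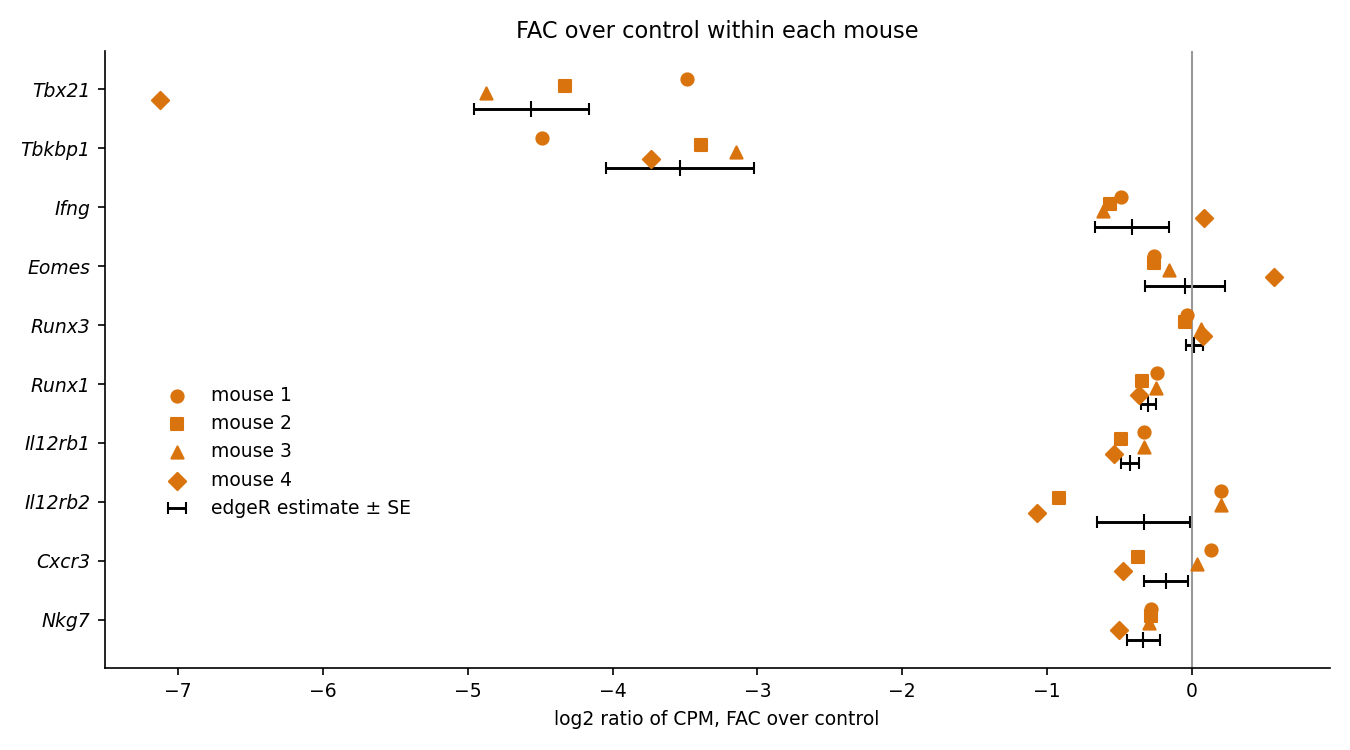
Log2 ratio of CPM, FAC over control, within each mouse (symbols) for the 10 genes, with the edgeR estimate and its SE (black). Tbx21 runs from -7.12 to -3.49 and Tbkbp1 from -4.49 to -3.15, Runx1, Il12rb1 and Nkg7 lie left of 0 in all 4 mice, and Runx3 stays within 0.08 of 0.

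By count, 4 of the 10 genes (Tbx21, Tbkbp1, Runx1 and Il12rb1) were called lower in the fit of all genes and 0 higher, beside a background of 1.10% lower and 2.18% higher among all tested genes. As the genes were picked with this contrast known, nothing is read from that count. It was 4 in each fit that left out a library and with the mouse as a block. It was 2 (Tbx21 and Tbkbp1) with the length offset and when limma was run on log2(TPM + 0.1) or the deposited signal, and 1 (Tbx21) for limma on log2(TPM + 1). The median log2 change over the 10 was -0.33, beside 0.00 over all tested genes. CPM ranges were separate, with FAC lower, for 5 of the 10 genes, the 4 above and Nkg7, beside 4.89% of all tested genes separate with FAC lower and 6.17% with FAC higher; nothing is read from that count either.

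Levels per length gave the same upper order in both groups. With FAC, Il12rb1 was highest (40.7 ± 3.49 TPM), followed by Runx3 (23.9 ± 2.55), Runx1 (19.7 ± 2.21), Nkg7 (13.5 ± 1.72) and Cxcr3 (2.72 ± 0.246 TPM). The lower places with FAC were Ifng (1.23 ± 0.413), Eomes (0.483 ± 0.114), Il12rb2 (0.288 ± 0.0978), Tbx21 (0.02 to 0.17) and Tbkbp1 (0.0800 ± 0.0424 TPM). In control cultures the first 5 were Il12rb1 (50.8 ± 6.07), Runx3 (22.9 ± 1.62), Runx1 (22.7 ± 1.77), Nkg7 (17.0 ± 0.926) and Cxcr3 (3.00 ± 0.365 TPM). Tbx21 then took place 6 with 2.50 ± 0.857 TPM, above Ifng (1.55 ± 0.482), Tbkbp1 (0.883 ± 0.499), Eomes (0.525 ± 0.124) and Il12rb2 (0.355 ± 0.0436 TPM). Neighbours whose ranges overlapped in control were Runx3 with Runx1 and each step from Cxcr3 down to Il12rb2. With FAC they were Runx3 with Runx1, Eomes with Il12rb2 and Tbx21 with Tbkbp1.

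Control cultures differed among themselves, and several of the genes did so in the same mice. Control mice 2 and 4 had more Tbx21 than control mice 1 and 3, by 1.94-fold between the extremes. The same 2 mice were the higher ones for Tbkbp1 (3.65-fold between extremes), Il12rb1 (1.25-fold), Il12rb2 (1.37-fold) and Cxcr3 (1.33-fold). Ifng, Eomes, Runx3, Runx1 and Nkg7 had other orders; for Ifng and Eomes, control mouse 2 was highest and control mouse 4 lowest. With 4 libraries these orders are a description.

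The transcript mix, a measure the choice of genes did not use, was compared through the abundance-weighted transcript length that RSEM reports. Of the 10 genes, 4 have more than 1 transcript listed and at least 50 counts in every library. Il12rb1 averaged 2432 ± 137 bases in FAC and 2541 ± 52.3 bases in control cultures, shorter with FAC in 3 of 4 mice (two-sided exact permutation test over 70 assignments, p = 0.2, adjusted p = 0.4 over the 4 genes). For Runx1 the averages were 3614 ± 276 bases in FAC and 3750 ± 102 bases in control, shorter in 3 of 4 mice (exact permutation p = 0.4, adjusted p = 0.533). Runx3 had 3422 ± 89.4 bases in FAC and 3441 ± 74.3 bases in control, shorter in 3 of 4 mice (exact permutation p = 0.714, adjusted p = 0.714). Nkg7 had 870 ± 13.1 bases in FAC and 855 ± 10.3 bases in control, longer with FAC in 3 of 4 mice (exact permutation p = 0.171, adjusted p = 0.4). None of the 4 passed the test. Its smallest possible p with 4 against 4 libraries is 0.0286 before adjustment over the 4 genes. A single gene at that floor could not pass once adjusted, so the result does not show an unchanged transcript mix. Without FAC mouse 3, control mouse 1 or control mouse 2, the Runx3 difference of -19.3 bases became 25.4, 1.14 and 1.52 bases. Among 8961 genes with the same minimum, 59.5% were shorter with FAC on average, with a median length change of -0.408%. Of these genes, 39.6% were shorter with FAC in at least 3 of 4 mice.

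Genes of the same pathway that are not among the 10 were read from 4 lists. The lists were written with earlier results of these data known. Their counts are a description, and nothing is read from them. The list of type 1 cytokine receptors and signalling genes held 12 tested genes, of which 1 fell and 0 rose by edgeR. At an unadjusted edgeR p under 0.05, 2 were lower and 4 higher. By DESeq2 and with the mouse as a block, 2 were lower and 0 higher. Over all tested genes 1.10% were called lower and 2.18% higher, and 8.14% and 10.3% were lower and higher at the unadjusted threshold. These shares were 2.37% and 3.96% by DESeq2, and 2.80% and 4.07% with the mouse as a block. Stat4, which relays IL-12, had 38.6 to 41.3 CPM with FAC and 36.4 to 38.0 CPM in control (0.10, SE 0.05, edgeR adjusted p = 0.302). The interferon gamma receptor genes were not called, Ifngr1 at 0.20 (SE 0.07, edgeR adjusted p = 0.119) and Ifngr2 at -0.15 (SE 0.08, edgeR adjusted p = 0.372). Nor was Il18r1, an IL-18 receptor gene (0.06, SE 0.31, edgeR adjusted p = 0.941). The list's median log2 change was 0.08, beside 0.00 over all tested genes.

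Among transcription partners, 8 of 12 genes were tested, and 1 fell and 0 rose by edgeR. At an unadjusted edgeR p under 0.05, 2 were lower and 0 higher, and DESeq2 called 1 lower and 0 higher. Over all tested genes edgeR called 1.10% lower and 2.18% higher, with 8.14% and 10.3% at the unadjusted threshold. By DESeq2 these shares were 2.37% and 3.96%. Irf1, an interferon-induced factor that acts in type 1 differentiation, fell to 12.8 ± 1.67 CPM with FAC, against 47.1 ± 10.9 CPM in control (-1.88, SE 0.15, edgeR adjusted p = 4.99e-06, lower in 4 of 4 mice). The list's median was -0.06, and its other 7 tested genes were not called.

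Of 23 type 1 effector genes, 15 were tested, and 3 fell and 0 rose by edgeR (7 lower and 1 higher at an unadjusted p under 0.05, and 3 lower and 0 higher by DESeq2). The shares over all tested genes were 1.10% called lower and 2.18% higher, and 8.14% lower and 10.3% higher at the unadjusted threshold. By DESeq2 they were 2.37% lower and 3.96% higher. With the mouse as a block 5 fell, beside 2.80% of all tested genes: the 3 with Tnf and Il2. The 3 were Lta, which encodes lymphotoxin alpha (-0.50, SE 0.06, edgeR adjusted p = 5.23e-04), and the chemokine genes Ccl4 (-0.45, SE 0.04, edgeR adjusted p = 5.05e-05) and Ccl3 (-0.39, SE 0.06, edgeR adjusted p = 0.00356), each lower in 4 of 4 mice. Il2, the T cell growth factor gene, had 120 ± 25.1 CPM in FAC and 151 ± 29.9 CPM in control cultures (-0.33, SE 0.14, edgeR adjusted p = 0.240, against 5.69e-04 with the mouse as a block). The list's median was -0.09.

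Of 16 regulators that favour other fates or restrain cytokine signals, 13 were tested, and 1 fell and 0 rose by edgeR. At an unadjusted edgeR p under 0.05, by DESeq2 and with the mouse as a block, 2 were lower and 0 higher. Over all tested genes edgeR called 1.10% lower and 2.18% higher, with 8.14% and 10.3% at the unadjusted threshold. These shares were 2.37% and 3.96% by DESeq2, and 2.80% and 4.07% with the block. The count of list genes that fell was 0 without FAC 2, FAC 3, FAC 4, control 1 or control 3, and 2 without FAC 1. It was also 0 in the fits with the length offset or with limma. Gata3, the type 2 helper factor gene that T-bet opposes, was not called, with 15.1 ± 1.00 CPM in FAC and 16.3 ± 0.529 CPM in control cultures (-0.11, SE 0.07, edgeR adjusted p = 0.428). The list's median was -0.09.

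**Figure D5:**
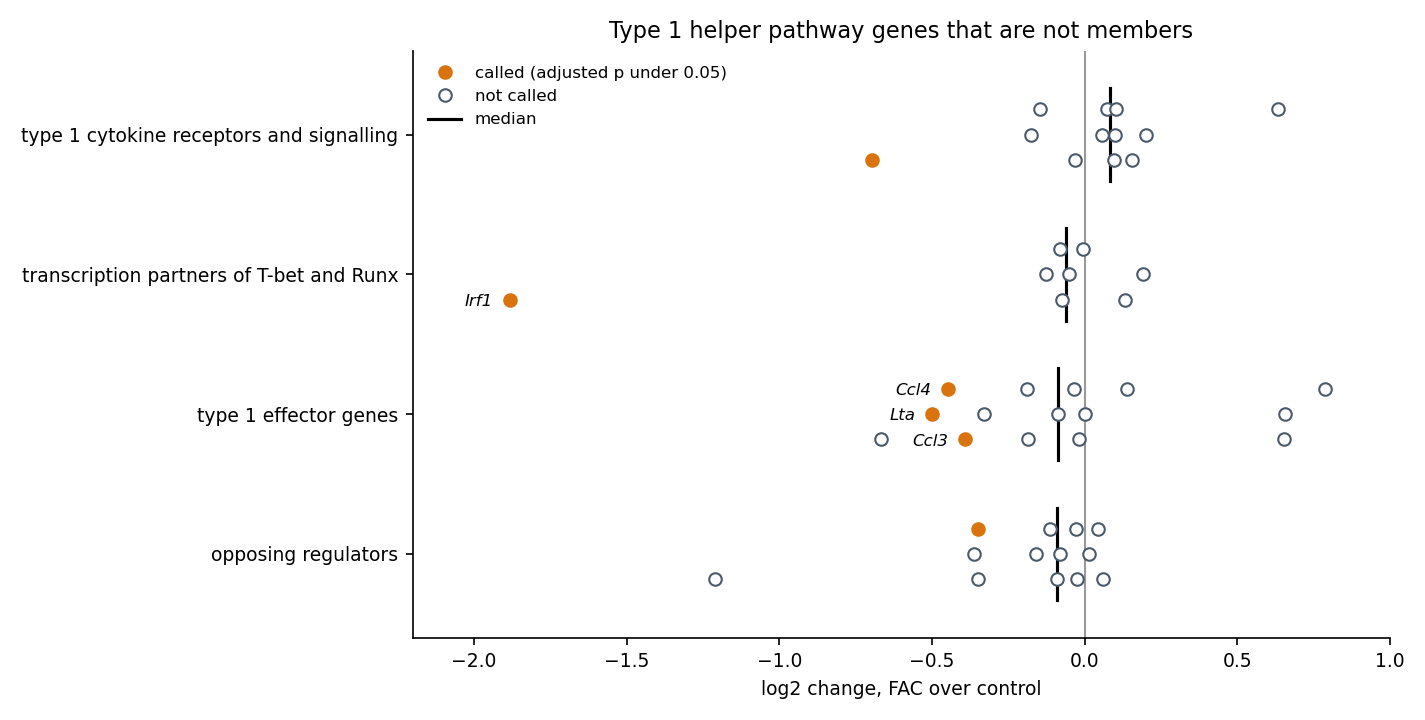
Log2 change, FAC over control (horizontal axis), of each tested gene of the 4 pathway lists; filled orange points are called at an edgeR adjusted p under 0.05, open points are not, and black lines are list medians. Called points lie left of 0 in every list, among them Irf1, Lta, Ccl4 and Ccl3, and the medians lie between -0.09 and 0.08.

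Likeness to Tbx21 was read as Pearson's r over the 8 libraries in log2(CPM + 0.1), which largely follows the split between FAC and control and is given as a description. The 5 genes most like it were Nfkbid (r = 0.996), Wee1 (0.990), Zbtb32 (0.988), Gbp6 (0.983) and Irf8 (0.981), and 134 of 13377 genes had an r of at least 0.9. Among the 5 least like it were Aacs (-0.981), Sqle (-0.979), Lss (-0.978) and Gm48604 (-0.976). With a pseudocount of 1, 3 of the highest 5 were kept, and Nfkbid and Wee1 took places 7 and 9. Among the other 9 genes described here, r was 0.917 for Tbkbp1, 0.904 for Il12rb1, 0.889 for Nkg7 and 0.884 for Runx1, and it was 0.0348 for Eomes and -0.231 for Runx3.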

How the data were processed

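Gene expression was read from 8 RNA sequencing libraries, 4 FAC and 4 control. A stranded mRNA kit was used on 250 ng of RNA, per the labels' protocols. The submitters' processing notes name STAR 2.7.6a, RSEM 1.3.1, R 3.6.3, DESeq2 1.26.0 and GRCm39, with no role or order. Strand use in counting was not given in the sources used here. RSEM output was deposited by the authors for each library, with, per the file headers, expected counts (estimated counts, unscaled), TPM (scaled for length and total), FPKM (read by no step here) and transcript lengths. A single deposited table holds a normalised signal for 13751 genes; its scaling was not given in the sources used here.

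Expected counts were rounded. edgeR 4.0.16 (R 4.3.3) filtered genes (minimum count 10, minimum total 15), applied TMM factors and fitted the group alone by quasi-likelihood, two-sided, with Benjamini-Hochberg adjustment over 13378 genes. SEs were derived as the absolute log2 change divided by the root of F. The test was checked on simulated data. Exact permutation tests and exact intervals (Clopper-Pearson, 95%) used SciPy 1.17.1. Pearson's r with Tbx21 was computed from centred and scaled values in Python 3.11.15. In CPM, 3 counts equal 0.0816 to 0.119. No molecular identifiers are described, so intervals and floors cover counting error only. Alternatives were DESeq2 1.42.0, RLE factors, no filter, the mouse as a replicate block, a length offset, limma 3.58.1 on log2(TPM + 1), log2(TPM + 0.1) and log2(deposited signal + 1), and leaving out each library.

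Mouse numbers pair cultures of the same animal per the labels; deviations from group means correlated at 0.205, 0.0568, 0.106 and 0.196 in mice 1 to 4. Nothing else says how cultures were separated. Members and lists were chosen with earlier results of these data known. Named genes were the 10 members, the called genes of each list (at most 6), 8 further pathway genes named whatever their call, 4 coding neighbours on each side of Tbx21 and Ifng, and the 5 genes most and least like Tbx21; some of these are not reported here. Symbols came from the deposited table and GENCODE M21 (52034 of 57010 matched), promoters from RefSeq (GRCm38.p6, not the submitters' build).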

Additional observations from a re-analysis of the deposited data

Results flagged for a closer look

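The weighted transcript length of Runx3 in FAC mouse 3 was 3287 bases, far below the other 3 FAC libraries at 3466 bases each. That of Runx1 in control mouse 4 was 3597 bases, far below the other 3 control libraries at 3790 to 3813 bases. These 2 were the values that lay far from the rest of their group among 28 groups of 4 libraries examined (CPM of 10 genes and length of 4 genes, in both groups); chance gives about 1 in 20. What sets the lengths apart was not tested.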

How the results depend on the processing

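Tbx21 was called lower in each of the 16 alternative fits and Tbkbp1 in all but limma on log2(TPM + 1). Both genes were chosen with this contrast known, and passed the filter on low counts through the control libraries. Nothing is read from the repeated calls. The Tbx21 log2 change was -4.90 to -4.28, except for -3.72 on log2(TPM + 0.1) and -1.64 on log2(TPM + 1). Over all genes, 291 were higher and 147 lower with FAC. These counts were 499 and 298 by DESeq2, 450 and 286 with no filter, 544 and 375 with the mouse as a replicate block, and 126 and 61 with the length offset. In limma they were 112 and 32 on log2(TPM + 1), 108 and 30 on log2(TPM + 0.1), and 99 and 57 on the deposited signal. Leaving out 1 library gave 80 (without FAC 3) to 405 (without FAC 4) higher and 65 (without FAC 2) to 243 (without FAC 1) lower. Of the 10 genes, 4 were called lower, against 2 with the length offset, on log2(TPM + 0.1) and on the deposited signal, and 1 on log2(TPM + 1). Receptor and signalling genes had 1 lower, against 2 by DESeq2, with no filter and with the mouse as a replicate block, and 1 to 2 without a library. Effector genes had 3 lower, against 5 with no filter and with the block, and 0 higher, against 1 with the length offset, on log2(TPM + 0.1) and on the deposited signal. Opposing regulators had 1 lower, against 2 by DESeq2, with no filter and with the block, 0 with the length offset and in all 3 limma fits, and 0 to 2 without a library. The Runx3 length difference of -19.3 bases ran from -48.1 to 25.4 without a library, and was 1.14 and 1.52 bases without control 1 and control 2. The causes were not tested. Levels of 1 to 9 counts limit the precision of Tbx21 and Tbkbp1 with FAC.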
